A study of Mus musculus with 2 samples.

Results

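The miR-200 family, miR-203 and miR-205 are microRNAs known from epithelial cells, and 7 of the 2202 miRNA genes counted in these mouse hearts encode them: Mir200b, Mir200a, Mir429, Mir200c, Mir141, Mir203 and Mir205. They were taken by gene symbol in the GENCODE M21 annotation. The set was chosen by values already known from these same libraries, among them the level of each gene and its ratio between the hearts, so levels and ratios are given as descriptions without a test. Small RNA libraries had been made from total RNA of heart tissue of female B6CASTF1/J mice, an F1 hybrid of C57BL/6 and CAST mice, aged 36 days by the age field; a free-text label has the same number with months as the unit. There was 1 group of 2 libraries, labelled biological replicates 1 and 2, here called heart 1 and heart 2. The labels give no treatment, both animal records carry the same donor code, and no other tissue or condition was compared here.

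MicroRNAs are cut from hairpin transcripts and, loaded on Argonaute, repress mRNAs that pair with the seed, bases 2 to 8 of the mature strand. The miR-200 family is known for holding epithelial cells in their state by repressing Zeb1 and Zeb2, transcription factors that repress the epithelial cadherin gene and the miR-200 genes in return. miR-205 also represses Zeb mRNAs, and miR-203 is known from the differentiating layers of the skin, where it represses the stem cell factor p63. Heart muscle is not epithelial, but the organ carries the mesothelial sheet of the epicardium and can carry tissue from the base of the great vessels.

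The mature strands that are known as the functional arms of the 7 genes are shown because their seeds sort the members into groups. Seeds are in capitals, and sequences are from RefSeq on GRCm38.p6, which matched all 7 genes at the same hairpin coordinates as the annotation used for counting.
miR-200b-3p: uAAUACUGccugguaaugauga
miR-200c-3p: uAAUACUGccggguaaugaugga
miR-429-3p: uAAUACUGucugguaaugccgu
miR-200a-3p: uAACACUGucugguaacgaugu
miR-141-3p: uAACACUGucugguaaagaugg
miR-203-3p: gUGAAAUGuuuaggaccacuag
miR-205-5p: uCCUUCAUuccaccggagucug

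Counted from the 5′ end, the seed of miR-200a and miR-141 differed from that of miR-200b by U4C alone. The AAUACUG seed was carried by miR-200b, miR-200c and miR-429 and the AACACUG seed by miR-200a and miR-141. None of the 4 seeds occurred in any other of the 1738 mature mouse miRNAs in the table. Outside the seed, miR-200c differed from miR-200b by U11G and A22G over 22 compared bases, and miR-141 differed from miR-200a by C17A and U22G. No run of 18 nt of these mature strands recurred in another miRNA hairpin of GENCODE M21. In other transcripts, runs recurred only in Gm13648 for miR-429, 4631405K08Rik for miR-205 and Gm29008 for miR-141. Gm13648 and 4631405K08Rik hold the hairpins in question in an exon on the same strand. The place and strand of Gm29008 relative to the Mir141 hairpin are not given here. Places outside annotated transcripts were not searched. Reads were counted per gene, so the shares of the 5p and 3p arms were not measured.

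All 7 genes were counted in both hearts. Libraries held 2074961 sense-strand counts over miRNA genes in heart 1 and 1766135 in heart 2, and CPM are counts per 1000000 of these. Detection at 2 CPM or more in both libraries was met by 7 of 7 members, against 15.2% of all genes. A count of 0 would allow up to 3 counts, which is 1.45 CPM in heart 1 and 1.70 CPM in heart 2. Together the members made up 0.0351% of the counts (exact 95% interval 0.0326 to 0.0378) in heart 1 and 0.0714% (0.0675 to 0.0754) in heart 2. Intervals and floors cover counting error only, since PCR reads without molecular identifiers are not independent molecules. In a whole tissue, fewer cells of a type and less RNA per cell cannot be told apart.

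The labelled tissue was checked with a list of 3 miRNAs of heart muscle. Mir208a, in the alpha myosin heavy chain gene, stood at 3809 CPM in heart 1 and 5069 CPM in heart 2. Mir499 stood at 2214 and 3475 CPM and Mir208b at 120 and 157 CPM. All 3 were detected, and the sum of the 7 members was 351 CPM in heart 1 and 714 CPM in heart 2. The list left out the muscle miRNAs miR-1 and miR-133, whose counted genes were low. Mir1a-2 stood at 58.3 CPM in heart 1 and 37.4 CPM in heart 2. Mir1a-1 stood at 3.86 and 3.96 CPM, Mir133a-1 at 3.86 and 1.13 CPM and Mir133b at 0.964 and 5.66 CPM. Each of these lay below Mir200c and Mir203 in the same heart.

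Mir200c was the most abundant of the 7 genes in both hearts. It had 465 counts, or 224 CPM (exact Poisson 95% interval 204 to 245), in heart 1 and 761 counts, or 431 CPM (401 to 463), in heart 2. With a mean of 327 ± 146 CPM (SD, n = 2) it took place 97 among all genes. Its level in either heart was above every value of the other 6 members.

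Mir203 came next and was nearly equal in both hearts. It had 170 counts, or 81.9 CPM (70.1 to 95.2), in heart 1 and 153 counts, or 86.6 CPM (73.4 to 102), in heart 2. The mean was 84.3 ± 3.32 CPM (SD, n = 2), the smallest spread relative to its mean among the members.

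Mir200b, Mir205 and Mir429 followed with means that overlapped in range. Mir200b had 24 counts, or 11.6 CPM (7.41 to 17.2), in heart 1 and 151 counts, or 85.5 CPM (72.4 to 100), in heart 2. Its mean of 48.5 ± 52.3 CPM (SD, n = 2) had an SD larger than the mean. Mir205 had 6 counts, or 2.89 CPM (1.06 to 6.29), in heart 1 and 91 counts, or 51.5 CPM (41.5 to 63.3), in heart 2, with a mean of 27.2 ± 34.4 CPM. In heart 1 the lower end of its interval lay under the floor of 3 counts. Mir429 had 34 counts, or 16.4 CPM (11.4 to 22.9), and 65 counts, or 36.8 CPM (28.4 to 46.9), with a mean of 26.6 ± 14.4 CPM.

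Mir141 and Mir200a were the lowest by mean, although in heart 1 Mir205 was the lowest at 2.89 CPM. Mir141 had 21 counts, or 10.1 CPM (6.26 to 15.5), in heart 1 and 22 counts, or 12.5 CPM (7.81 to 18.9), in heart 2, with a mean of 11.3 ± 1.65 CPM (SD, n = 2). Mir200a had 9 counts, or 4.34 CPM (1.98 to 8.23), and 18 counts, or 10.2 CPM (6.04 to 16.1), with a mean of 7.26 ± 4.14 CPM. In the order Mir200c, Mir203, Mir200b, Mir205, Mir429, Mir141, Mir200a, the 2 libraries' ranges did not overlap between Mir200c and Mir203 or between Mir429 and Mir141. The other 4 pairs of neighbours overlapped and were not separated by their spread. Per 100 nt of annotated hairpin the order was the same, from 475 ± 212 CPM for Mir200c to 8.07 ± 4.6 CPM for Mir200a.

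**Figure D1:**
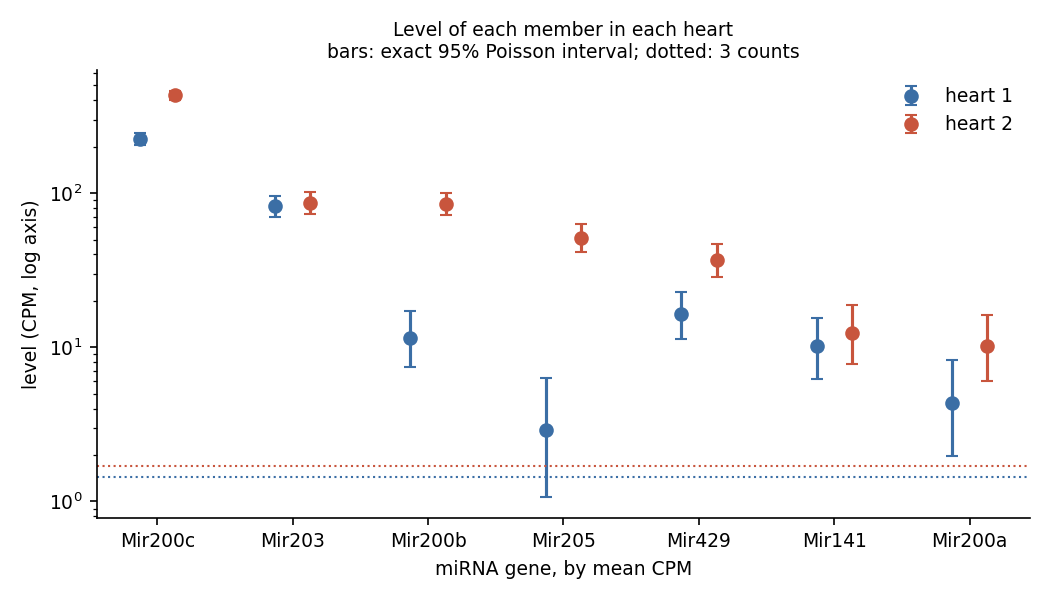
Level of each of the 7 genes in CPM (log axis) in heart 1 (blue) and heart 2 (red), with exact 95% Poisson intervals, and dotted lines at 3 counts in each library. Mir203 and Mir141 each have similar levels in both hearts, while the intervals of Mir200b, Mir205, Mir200c and Mir429 do not overlap between the hearts.

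By seed, nearly all reads of the family came from genes with the AAUACUG seed. Mir200b, Mir200c and Mir429 summed to 252 CPM in heart 1 and 553 CPM in heart 2. Mir200a and Mir141, with the AACACUG seed, summed to 14.5 and 22.6 CPM. Within a library the first group exceeded the second by 17.4 times (exact interval 12.1 to 26.1) in heart 1 and by 24.4 times (17.8 to 34.4) in heart 2. These intervals overlapped.

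The ratio between the hearts differed widely among the members. It is given as replicate 2 over heart 1 on library sizes with TMM scaling (a trimmed mean of the log ratios of all genes), with the exact interval of the split of the counts. Mir205 was 15.8-fold higher in heart 2 (7.0 to 44.3) and Mir200b 6.57-fold higher (4.25 to 10.6). Mir200a was 2.09-fold higher (0.891 to 5.28), an interval that included 1. Mir429 was 2.00-fold higher (1.30 to 3.12), a value of 0.99 on the log2 scale, just under the limit of 2-fold. Mir200c was 1.71-fold higher (1.52 to 1.92).

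Mir141 and Mir203 stood near 1. Mir141 had a ratio of 1.09 (0.574 to 2.09). Mir203 had a ratio of 0.940 (0.751 to 1.18), and its log2 ratio turned from -0.09 to 0.08 when library size alone was used as scaling. Each of these intervals included 1.

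Of the 7 members, 3 were 2-fold or more higher in heart 2, namely Mir205, Mir200b and Mir200a. Among all 359 genes whose counts summed to 10 or more, 10% were. None of the members was 2-fold or more higher in heart 1, against 9.75% of those genes. The first of these counts changed with the scaling: with library size alone 4 members passed, Mir429 among them, against 13.9% of genes, and with DESeq2 size factors 2 did, against 8.91%. Since the members were chosen with these ratios known, nothing is read from the difference to the background. The median log2 ratio of the members was 0.99, and that of all 359 genes -0.01. Counting Mir205 itself, 5 of the 359 genes had a log2 ratio at or above its 3.88, and 8 had one at or above the 2.69 of Mir200b.

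**Figure D2:**
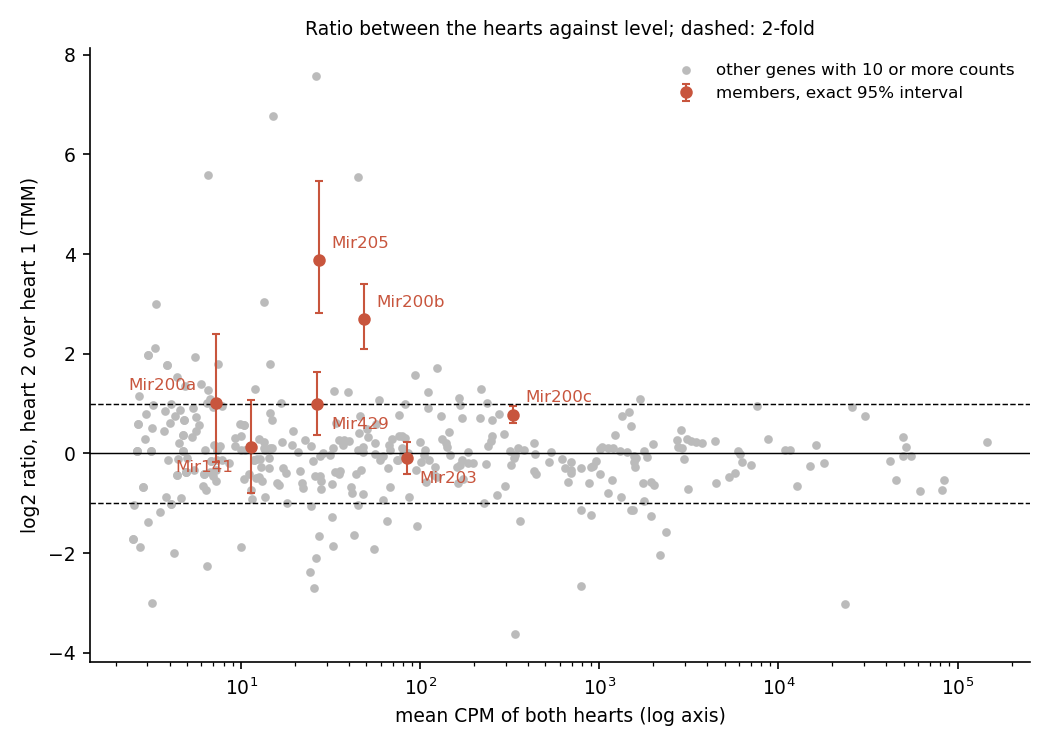
Log2 ratio of heart 2 over heart 1 (TMM scaling, prior count of 0.5) against the mean CPM of both hearts (log axis), with the 7 members in red and the other genes with 10 or more counts in grey. Mir205 at 3.88 and Mir200b at 2.69 lie above the dashed line of 2-fold, while Mir203 at -0.09 and Mir141 at 0.13 lie near 0.

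Without Mir205, the other 6 members summed to 348 CPM in heart 1 and 662 CPM in heart 2, a ratio of 1.69 (1.54 to 1.86). For all 7 the ratio was 1.81 (1.65 to 1.98). Without Mir200c, the sum was 127 and 283 CPM and the ratio 1.98 (1.70 to 2.30). The sum was thus higher in heart 2 with Mir200c or Mir205 left out singly. Leaving out several members together, Mir200b among them, was not tried. The members were chosen with these ratios known, so this is a description.

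The miR-200 genes lie in clusters on chromosome 4 and chromosome 6, and each cluster holds genes of both seeds. On chromosome 4 (mm10, minus strand), Mir200b (156055681 to 156055750), Mir200a (156054896 to 156054985) and Mir429 (156053905 to 156053987) are separated by 695 and 908 nt. All 3 lie within introns of the longer Ttll10 transcripts and within the noncoding transcript Gm13648, where Mir200b and Mir200a are intronic and Mir429 is exonic. The start of Gm13648 lies 4052 nt before the Mir200b hairpin. On chromosome 6 (minus strand), Mir200c (124718322 to 124718390) and Mir141 (124717914 to 124717985) are separated by 336 nt and lie in an intron of the noncoding transcript Gm15884.

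The chromosome 4 cluster was the smaller in both hearts and differed more between them. Its 3 genes summed to 32.3 CPM in heart 1 and 133 CPM in heart 2, 3.65-fold higher (2.77 to 4.86). The chromosome 6 cluster summed to 234 and 443 CPM, 1.68-fold higher (1.5 to 1.89). Within a library, where scaling cancels, the chromosome 4 cluster had 0.138 times the reads of the chromosome 6 cluster in heart 1 (exact interval 0.105 to 0.178) and 0.299 times in heart 2 (0.257 to 0.346). These intervals did not overlap, but they cover counting error only.

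Mir429 and Mir200b of the chromosome 4 cluster stood in a different proportion in each library. Of its 67 reads in heart 1, Mir200b made up 35.8% (exact interval 24.5 to 48.5), Mir429 50.7% (38.2 to 63.2) and Mir200a 13.4% (6.33 to 24.0). Of its 234 reads in heart 2, Mir200b made up 64.5% (58.0 to 70.7), Mir429 27.8% (22.1 to 34.0) and Mir200a 7.69% (4.62 to 11.9). Mir429 thus had 1.42 times the reads of Mir200b (0.816 to 2.50) in heart 1 and 0.430 times (0.317 to 0.579) in heart 2, with intervals that did not overlap. The intervals cover counting error only, and the change follows from the ratios between the hearts given above. The ratio of Mir200a to Mir429 was 0.265 (0.112 to 0.564) and 0.277 (0.155 to 0.473). The ratio of Mir200a to Mir200b was 0.375 (0.153 to 0.836) and 0.119 (0.0688 to 0.195), with intervals that overlapped, as did those of Mir200a to Mir429.

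In the chromosome 6 cluster, Mir200c held nearly all reads. It made up 95.7% (93.5 to 97.3) of 486 reads in heart 1 and 97.2% (95.8 to 98.2) of 783 reads in heart 2. Mir141 had 0.0452 times the reads of Mir200c (0.0277 to 0.0699) in heart 1 and 0.0289 times (0.0180 to 0.0441) in heart 2. These intervals overlapped. Within each cluster, a gene with the AAUACUG seed had the most reads in both hearts.

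**Figure D3:**
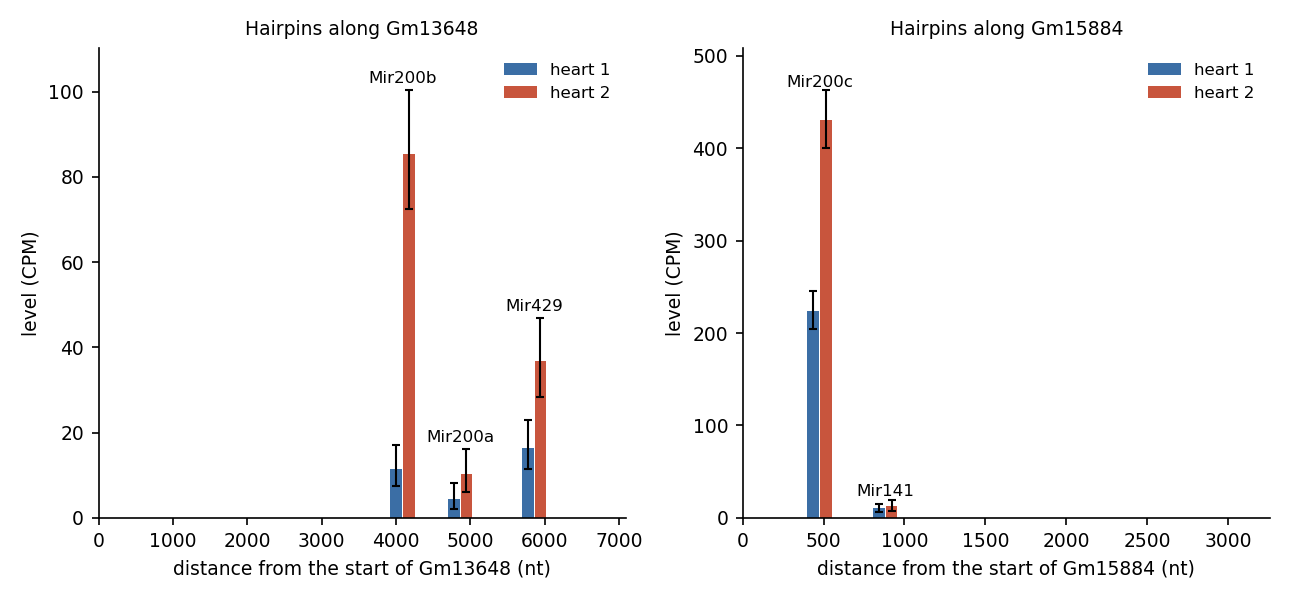
Level in CPM of the miR-200 genes in heart 1 (blue) and heart 2 (red), with exact 95% Poisson intervals, placed at their distance in nt from the start of the noncoding transcript that contains them; bars are wider than the hairpins, and each panel has its own vertical scale. Mir200b stands at 11.6 and 85.5 CPM, while Mir200c exceeds Mir141 by a wide margin in both.

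The start of Gm13648 is shown because Zeb1 is known to bind E-boxes at miR-200 promoters. The start of Gm15884 was not analysed here. Genes of both clusters were higher in heart 2 under each scaling tried. The sequence shown is a reference, the same for both hearts, and its part in their ratios was not tested. The window of 300 nt (RefSeq, GRCm38.p6, chr4:156059753-156060052, minus strand) runs from 250 nt before the start to 50 nt after it. The motif searched was CAGGTG on both strands, which reads CACCTG in the other direction, and matches are in capitals.
Gm13648 start: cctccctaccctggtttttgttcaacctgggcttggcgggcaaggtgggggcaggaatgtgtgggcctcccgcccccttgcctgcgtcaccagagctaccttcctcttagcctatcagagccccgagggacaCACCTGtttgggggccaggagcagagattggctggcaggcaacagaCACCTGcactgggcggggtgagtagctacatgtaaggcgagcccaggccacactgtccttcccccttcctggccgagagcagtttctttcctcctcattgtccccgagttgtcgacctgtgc

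This window held 2 matches, beginning 118 and 72 nt before the start, and they did not overlap. Of 32851 such windows, 20.2% held at least 1 match. The share with 2 or more was not counted, so the number of matches here has no like background. The start of Mir205hg, the noncoding gene with Mir205 in an exon, held 1, beginning 193 nt before the start. A match is a description of the letters, and binding was not measured here.

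Mir203 and Mir205 lie alone. Mir203 (mm10, chromosome 12, 112130880 to 112130955, plus strand) lies 3321 nt from Aspg, its nearest protein-coding gene, and in no annotated transcript. Mir205 (chromosome 1, 193507463 to 193507530, minus strand) lies in an exon of the noncoding gene listed as 4631405K08Rik in GENCODE and as Mir205hg in RefSeq. Both are known from stratified epithelia, yet their proportion differed: Mir205 had 0.0353 times the reads of Mir203 (0.0128 to 0.0784) in heart 1 and 0.595 times (0.454 to 0.776) in heart 2.

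Other miRNA genes of epithelia are set beside the members. Of 17 such genes on 4 lists, 13 had 10 or more counts. Of these, 0 were 2-fold or more higher in heart 2 and 4 were so in heart 1, against 10% and 9.75% of all 359 genes. With library size alone, 3 were so in heart 1, against 7.52% of genes. Their median log2 ratio was -0.36. The lists were chosen with earlier results of these data known, so nothing is read from the difference to the background. Of the ciliated list, Mir449a had 103 counts (49.6 CPM) in heart 1 and 27 (15.3 CPM) in heart 2, and Mir34c 83 (40.0 CPM) and 15 (8.49 CPM). Both were higher in heart 1, by 3.65-fold (2.37 to 5.80) and 5.30-fold (3.03 to 9.89). Mir34b, named after its values were seen, had 1 and 8 counts, below the limit of 10 for the counts above, a ratio of heart 2 to heart 1 of 8.36 (1.12 to 371). Mir449b and Mir449c had 0 counts in both hearts.

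The other list of stratified epithelium held the largest of these ratios. Mir31, which is known from keratinocytes, had 1287 counts (620 CPM) in heart 1 and 99 (56.1 CPM) in heart 2. Mir224 stood at 166 and 154 CPM and Mir184 at 75.7 and 84.4 CPM. Mir31 thus lay opposite to Mir205, and the difference between the lists was not tested.

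Of the sensory and secretory list, Mir183 stood at 35.7 and 31.1 CPM, Mir182, its neighbour in a cluster, at 37.1 and 27.2 CPM, and the endocrine Mir375 at 16.9 and 10.2 CPM. None reached 2-fold. Of the gut and liver list, Mir215 stood at 73.7 and 75.9 CPM, Mir192 at 29.9 and 40.8 CPM and Mir194-1, whose mature strand is also encoded by Mir194-2, at 16.9 and 21.5 CPM. Mir122, the main miRNA of hepatocytes, stood at 57.8 and 31.7 CPM, which was 2.05-fold higher (1.48 to 2.87) in heart 1.

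Markers of other cell types also differed between the hearts. The 8 listed genes of embryonic stem cells, all of the miR-290 cluster, had 3 counts (1.45 CPM) in heart 1 and 336 (190 CPM) in heart 2. In heart 1, 7 of the 8 were at 0, and all 3 counts were of Mir292, which had 157 in heart 2. The miR-290 genes moved in the direction of Mir205 and Mir200b. Stem cell miRNA genes outside that cluster were not on the list and did not move alike. Mir302a had 4 counts in heart 1 and 12 in heart 2, and Mir302d had 10 and 7. The 3 red blood cell genes summed to 45890 CPM in heart 1 and 7589 CPM in heart 2, the opposite direction. Most of this sum was Mir451a, at 41390 and 5739 CPM. Mir144 stood at 3406 and 934 CPM, while Mir486, at 1092 and 917 CPM, was only 1.34-fold higher in heart 1. The part of either list in the members' ratios was not tested.

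Lists of the main heart cell types had smaller median ratios, in either direction, than the miR-290 and red blood cell lists. Some genes of the smooth muscle and fibroblast list and of the leukocyte list still passed 2-fold. The 3 listed heart muscle genes had log2 ratios from 0.21 to 0.48. Muscle genes outside the list did not share this range. Mir1a-2 had a log2 ratio of -0.81, Mir1a-1 of -0.12, Mir133a-1 of -1.71 and Mir133b of 2.13, the last 3 from few counts. Mir126a, of endothelium, had one of -0.73. The 6 tested genes of smooth muscle and fibroblasts ranged from -1.06 to 0.76, with a median of 0.11, and the 4 leukocyte genes from -1.36 to 1.08, with a median of 0.48.

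**Figure D4:**
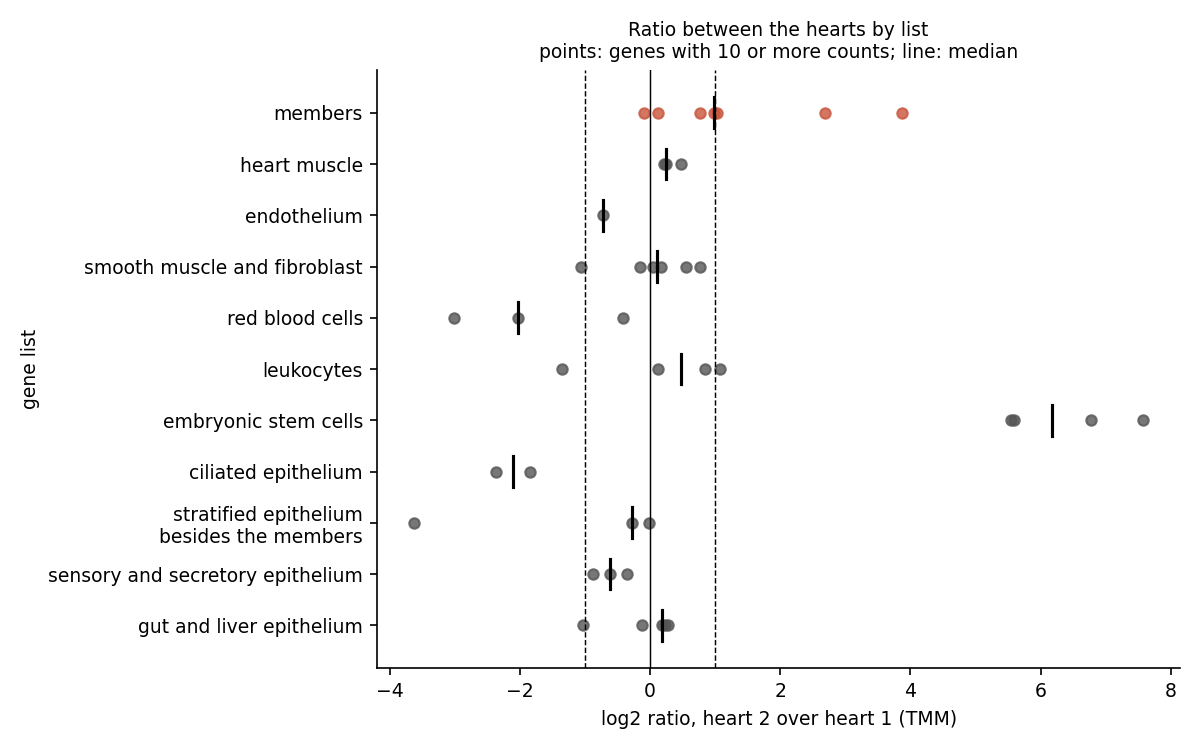
Log2 ratio of heart 2 over heart 1 (TMM scaling, prior count of 0.5) of each gene with 10 or more counts, by list, with the median as a black line and 2-fold as dashed lines. Members lie at -0.09 and above, the ciliated list at -1.85 and below, and the miR-290 genes at 5.55 and above, where 3 of the 4 have no count in heart 1, so that their place depends on the prior count.

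Genes with the level most like that of a member in both hearts were found by Euclidean distance of log2(CPM + 1) over the 2 libraries. Nearest to Mir200c were Mir574 (236 and 347 CPM, distance 0.32) and Mir874 (186 and 365 CPM, 0.36). Nearest to Mir203 were Mir669c (80.0 and 91.2 CPM, 0.08) and Mir184 (0.12). Nearest to Mir200b were Mir487b (17.8 and 48.1 CPM, 1.00) and Mir26a-2 (21.7 and 57.8 CPM, 1.02), and to Mir205 Mir292 (1.45 and 88.9 CPM, 1.02) and Mir26a-1 (2.41 and 24.4 CPM, 1.07). Distances for Mir200b and Mir205 were larger than those for Mir200c and Mir203, so fewer genes lay close to them in level. Mir26a-1 and Mir26a-2 encode the same mature miRNA and Mir669c belongs to a family of near copies, and reads that fit several places are left out of their counts.

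Nearly all reads of the members lay on the strand of the gene. On the opposite strand, Mir200a had 1 read in heart 1 and Mir203 had 5 in each library, and the other 5 members had 0 in both.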

How the data were processed

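Sense-strand read counts of 2 heart libraries were analysed. Per the deposited notes, the authors mapped reads to mm10 and deposited raw counts per GENCODE M21 miRNA gene; which aligner and counter they used is not stated in the sources used here. Reads with several mapping places, outside genes or unmapped stand in 4 rows that name no gene, 63.0% of reads in replicate 1 and 64.6% in replicate 2, and were left out of library sizes. A chi-square test over 246 genes (149978, 245 degrees of freedom) showed that the libraries were not copies.

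TMM factors came from edgeR 4.0.16 and size factors from DESeq2 1.42.0, which were 1 in both libraries. TMM moved log2 ratios by -0.17 from library size alone. Log2 ratios used a prior count of 0.5, over genes with 10 or more counts. Folds were taken without it. Intervals (95%) were exact: Clopper-Pearson for splits and shares, Poisson for counts (scipy 1.17.1). No p-value was computed, since the libraries form 1 group. Scripts were tested on simulated data.

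The members and 10 marker lists were chosen with earlier results of these data known. Genes open to naming were all members, up to 4 detected genes of each list (at least 2 CPM in each library), and the 2 genes nearest in level to each of 4 members. Mir292 and the miR-290 list as a whole were named after their values were seen. So were Mir302a, Mir302d and the miR-1 and miR-133 genes, which are on no list. Alternatives were other scalings, library size over all reads, prior counts, folds, count and detection limits, counts without regard to strand, and each library alone.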

Additional observations from a re-analysis of the deposited data

Results flagged for a closer look

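At Mir203, reads on the opposite strand were counted in both libraries, a signal in a column that the results above do not otherwise use. There were 5 in replicate 1, beside 170 on the strand of the gene, and 5 in replicate 2, beside 153, above the 3 counts that a count of 0 allows. They made up 2.86% (exact 95% interval 0.934 to 6.54) and 3.16% (1.03 to 7.23) of reads at the locus. GENCODE M21 has no miRNA gene there on that strand, while RefSeq (GRCm38.p6) lists miR-203b, gene Gm51289, at chromosome 12, 112130887 to 112130946, minus strand, whose 60 nt all lie within the Mir203 hairpin. Its mature strands, with the seeds in capitals, are shown because they differ in seed from miR-203-3p.
miR-203b-3p: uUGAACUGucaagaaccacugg
miR-203b-5p: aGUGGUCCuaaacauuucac

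Whether these 10 reads are of miR-203b was not tested, since the tables give no position within the hairpin.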

How the results depend on the processing

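No paired analysis was possible because the series holds 1 group of 2 libraries. With library size over all reads, the summed level of the members moved from 533 to 191 CPM. With each library alone it was 351 and 714 CPM. With counts without regard to strand it was 738 CPM, and Mir203 moved from 84.3 to 120 CPM and Mir141 from 11.3 to 15.6 CPM. Those counts summed to 1473763 over genes in replicate 1 and 1295913 in replicate 2, less than the sense-strand counts. At a fold of 1.5, 5 members were past it in replicate 2 and 0 in replicate 1, against 20.3% and 20.1% of genes; at a fold of 3 it was 2 and 0, against 4.74% and 5.01%, and with 50 or more counts 2 and 0, against 6.91% and 9.35%. The log2 ratio of Mir203 turned from -0.09 to 0.080 with library size alone. Mir200a passed 2-fold at 1.02 on the log2 scale and did not with DESeq2 size factors (0.96), a prior count of 2 (0.92) or counts without regard to strand (0.84). At limits of 5 and 10 CPM, 5 members were detected. Reads mapped to several places are in no count. Both libraries are of 1 group, so the spread of n = 2 is the only measure of error between libraries, and the counts of Mir200a, Mir141 and of Mir205 in replicate 1 limit their ratios.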
